A study of Mus musculus with 38 samples.

Results

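A set of 46 nuclear receptor genes of the mouse was followed through the enhancer marks of epidermal stem cells (EpdSCs) after the transcription factor SOX9 was switched on. The members were listed by symbol, from *Thra* to *Nr0b2*, were all found in GENCODE M21, and are 46 of its 21911 protein-coding genes on 21 chromosomes. Each gene was given a window that held its gene body and 20 kb on either side, and every called interval that shared at least 1 bp with the window was counted. Nuclear receptors are transcription factors whose DNA-binding domain reads short hexamer sites and whose ligand-binding pocket takes small fat-soluble molecules, among them thyroid hormone, retinoic acid, vitamin D, steroids, fatty acids and bile acids. Orphan members have no established natural ligand or act through their abundance alone. In skin, the retinoid, vitamin D, glucocorticoid and PPAR branches are known for their parts in keratinocyte differentiation, the epidermal barrier and the hair cycle.

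The skin samples came from male mice of the genotype K14rtTA; TRE-myc-Sox9, in which doxycycline (DOX) turns on MYC-tagged SOX9 wherever the keratin 14 promoter is active, so that the whole epithelium and not the sorted cell alone received SOX9. DOX began at postnatal day 21, and EpdSCs, sorted as CD49f-high, CD34-negative and Ly6A-high cells without markers of vessels, blood, melanocytes or fibroblasts, were profiled at D0, which was uninduced and carried the same transgenes, and at W1, W2, W6 and W12, the weeks of DOX. Per the study's methods, the W12 cells came from skin of newborn pups grafted onto immunocompromised female Nude mice. The grafts healed for 21 days before DOX began. Time on DOX, grafting and the host thus cannot be told apart at W12. H3K27ac, found on nucleosomes at active enhancers and promoters, and H3K4me1, which also marks enhancers that are primed but silent, were each measured in 12 skin samples. By their titles, the samples of a mark and time were libraries of a high and a low digest with the nuclease MNase. At D0 and W1 each library carried both replicates, so the 12 samples are not 12 biological replicates. H3K4me1 was also measured in 2 libraries of cultured EpdSCs from newborn pups, 1 of a low and 1 of a high MNase digest. Per the study's methods, these *Krt14-rtTA* cells were transduced in culture with lentivirus and selected with puromycin. The viruses gave DOX-inducible wild-type SOX9, ΔHMG-SOX9 without the DNA-binding domain or ΔTA-SOX9 without the transactivation domain.

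What was compared were 14 lists of intervals, each called by the authors on the pooled replicates of a group. There was thus no spread between replicates and no test, every difference below is a description of 2 lists, and the exact 95% Clopper-Pearson intervals given with shares cover counting error only. A member was called higher or lower when its covered bases, that is the bases of the window under intervals, differed from those of the reference list by at least 1.5-fold and by at least 500 bp for H3K27ac or 2000 bp for H3K4me1. The background is the percentage of the 21865 other coding genes that the same rule called. Members had longer windows than other coding genes, with a median of 88.2 kb against 57.4 kb, which makes a change of a fixed number of bases easier to reach. The background pileup recovered from the folds, which rises with depth, lay between 0.299 at W1 and 0.677 at W6, lowest at W1 and highest at W6. The W12 list held the most H3K27ac peaks, 33985, but the narrowest, with a median of 476 bp against 635 to 821 bp in the others. Its peaks also covered the least, 23.1 Mb against 27.3 to 32.1 Mb, which bears on every lower call at W12. Values given in a row follow the order of the 5 lists, with D0 first and W12 last. In bulk chromatin, fewer cells with a mark and less mark per cell cannot be told apart. All 6 basal epidermal markers had an H3K27ac peak in every list, with a median of 13.4 to 17.8% of the window covered. *Col3a1* of fibroblasts, *Kdr* of endothelium, *Lyz2* and *Csf1r* of immune cells and *Tyr* of melanocytes had none in any list. Other markers of these cells had peaks, such as *Pecam1* with 10.2% of its window covered at D0. Called higher than at D0 were *Cd79a*, *Sox10* and *Mitf* at W1, W2 and W6 and *Col1a1* at W2, W6 and W12. So were *Tek* at W1 and W12 and *Cdh5* and *Ptprc* at W12. Called lower were *Cd3e* at W2 and W12, *Pecam1* at W1, *Pmel* at W2, and *Cd79a* and *Mitf* at W12. Of 5 fibroblast markers, 0 had a peak at D0 and 3 at W12, of 4 endothelial markers 1 and 3, of 5 immune markers 2 and 3, and of 5 melanocyte markers 3 and 4. Of 6 markers of hair follicle stem cells, 4 had a peak at D0, 5 at W1 and W2, 4 at W6 and 3 at W12. From W1 to W12, 4, 4, 2 and 0 of these were called higher than at D0, and 0, 0, 1 and 1 lower. The part of such cells in the results was not tested.

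Sequences are shown for the H3K27ac peaks of the family that appeared and stayed, and for those that were present at D0 and in no later list, since these sites carry the changes described below. Each line gives 200 bases of GRCm38, plus strand, centred on the summit of the peak in the authors' file. Capitals mark matches, on either strand, to ACAAAG or ACAATG (letters bound by SOX factors), TGANTCA (AP1) or AGGTCA (the hexamer bound by many nuclear receptors). Of 5 peaks called at W2, W6 and W12 with no overlapping peak at D0, the 3 with the highest score at W2 lay 60.7 kb downstream of the *Nr4a3* start site (chr4:48105768-48105967), 31.4 kb downstream of the *Vdr* start site inside the gene (chr15:97879140-97879339) and 5.1 kb upstream of *Esrra* (chr19:6926818-6927017).
Nr4a3, gained: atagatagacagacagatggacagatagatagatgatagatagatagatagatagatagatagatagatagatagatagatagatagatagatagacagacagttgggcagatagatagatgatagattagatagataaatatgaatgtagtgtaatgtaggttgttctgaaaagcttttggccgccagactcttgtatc
Vdr, gained: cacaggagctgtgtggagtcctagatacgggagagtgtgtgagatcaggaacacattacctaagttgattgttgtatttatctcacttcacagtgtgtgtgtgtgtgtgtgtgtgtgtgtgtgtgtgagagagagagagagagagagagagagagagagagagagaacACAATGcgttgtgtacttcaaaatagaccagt
Esrra, gained: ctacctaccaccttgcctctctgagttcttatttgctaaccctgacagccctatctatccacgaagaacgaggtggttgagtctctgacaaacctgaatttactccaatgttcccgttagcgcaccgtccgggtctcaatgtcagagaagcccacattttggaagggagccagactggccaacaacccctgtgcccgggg
Of 46 peaks called at D0 and in no later list, the 3 with the highest score lay 4.6 kb upstream of the *Nr1d1* start site, in a window that *Nr1d1* shares with *Thra* (chr11:98779821-98780020), 0.9 kb downstream of the most 5′ *Ppara* start site in a peak that covers another of its start sites (chr15:85735817-85736016), and 0.4 kb downstream of the *Nr4a2* start site (chr2:57123500-57123699).
Nr1d1 and Thra, D0 only: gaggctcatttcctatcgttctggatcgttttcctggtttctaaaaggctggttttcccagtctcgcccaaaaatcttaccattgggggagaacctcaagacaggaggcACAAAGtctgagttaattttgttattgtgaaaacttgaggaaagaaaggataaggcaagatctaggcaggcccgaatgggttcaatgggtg
Ppara, D0 only: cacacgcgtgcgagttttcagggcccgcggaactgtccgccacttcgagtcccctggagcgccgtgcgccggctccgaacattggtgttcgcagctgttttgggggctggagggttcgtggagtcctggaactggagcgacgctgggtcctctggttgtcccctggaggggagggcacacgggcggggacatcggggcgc
Nr4a2, D0 only: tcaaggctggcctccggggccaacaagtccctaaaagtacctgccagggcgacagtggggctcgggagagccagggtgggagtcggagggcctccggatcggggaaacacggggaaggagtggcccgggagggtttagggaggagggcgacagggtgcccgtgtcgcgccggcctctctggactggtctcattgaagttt

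The gained *Vdr* peak had no overlap at D0, but peaks of other lists join it to a merged region that was also marked at D0. The gained *Vdr* window held 1 ACAATG and the *Nr1d1* window 1 ACAAAG, and the other 4 windows held none of the letters. Over all 46 peaks of the D0-only kind in member windows, 15 summit windows held ACAAAG or ACAATG (32.6%, 95% CI 19.5 to 48%), against 23.2% of the 6021 such peaks elsewhere. AGGTCA stood in 6 of the 46 (13%, 4.94 to 26.3%) and in 12.9% of those elsewhere, and TGANTCA in 2 of the 46 (4.35%, 0.531 to 14.8%) and in 6.15%. The members' intervals held the value elsewhere for each of these letters. TGANTCA and AGGTCA end in the same letters and can overlap. H3K27ac summits mark nucleosomes, and a motif beside the nucleosome can lie outside these windows. The *Nr4a3* window was masked as repeat in the RefSeq genome over 70.5% of its length and the *Vdr* window over 45.5%, and the *Nr4a3* window can be seen to run in short tandem repeats. By comparison, 7.50% of all summit windows of the W2 list were masked over at least 50%.

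The family was about as often marked by H3K27ac as other coding genes. At D0, 30 of 46 members had at least 1 peak (65.2%, 95% CI 49.8 to 78.6%, background 64.1%). The number was 32 at W1 (background 64.0%) and 31 at W2 (63.4%), and later 32 at W6 (65.4%) and 35 at W12 (66.1%). In all 5 lists 27 members had a peak (background 53.1%). The 8 members without a peak in any list (background 23.7%) were *Nr1i2*, which encodes the xenobiotic receptor PXR, *Rorb*, *Pgr* (the progesterone receptor), *Esrrb*, *Nr2e1*, *Nr2f1*, *Nr5a2* and *Nr0b1*. Another 5 members, *Rxrg*, *Pparg*, *Hnf4a*, *Hnf4g* and *Nr2f2*, had peaks at W12 only, with 312 to 920 bp covered. The W12 list also held many peaks seen in no earlier list over the whole genome, and 18.8% of all H3K27ac regions outside member windows were W12 only.

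**Figure D1:**
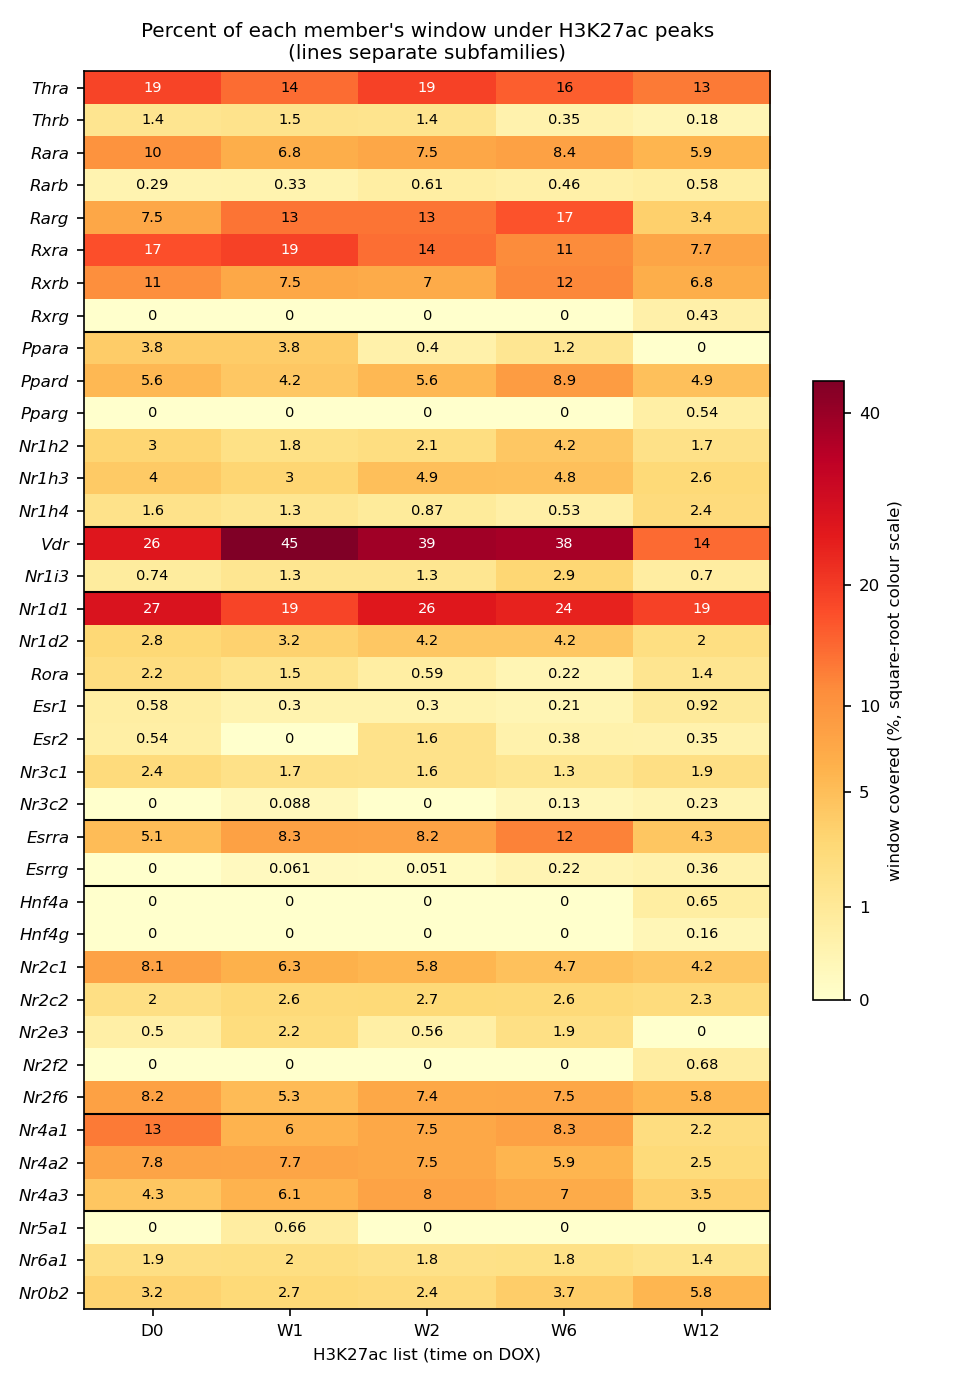
Percentage of each member's window (gene body with 20 kb on either side) under H3K27ac peaks, for the 38 members with a peak in any list (rows, in subfamilies separated by lines) and the 5 lists (columns, time on DOX), on a square-root colour scale. *Vdr* has the highest cover of any member at W1, W2 and W6, *Nr1d1* at D0 and W12, and *Ppara*, *Rora* and *Thrb* are palest at W6 or W12.

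Which members changed against D0 was asked list by list. At W1, 4 members were called higher (8.70%, 95% CI 2.42 to 20.8%, background 11.5%) and 5 lower (10.9%, 3.62 to 23.6%, background 11.9%). At W2 the counts were 6 higher (background 14.7%) and 6 lower (background 10.1%). At W6 there were 9 higher (19.6%, 9.36 to 33.9%, background 18.2%) and 9 lower (19.6%, 9.36 to 33.9%, background 7.69%). At W12, 8 were higher (17.4%, 7.82 to 31.4%, background 9.61%) and 13 lower (28.3%, 16 to 43.5%, background 26.9%). The share called lower at W6 was the count farthest above its background, and it was smaller in equal windows. With equal windows of 20 kb on either side of the start site, 5 members were lower at W6 (10.9%, 3.62 to 23.6%), against 6.04% of other genes. Scaled to the covered length of each list, 4 members were higher and 9 lower at W1 (9.38 and 14.2% of other genes under the same scaling), 4 and 10 at W2 (10.1 and 14.4%), 5 and 9 at W6 (13.8 and 9.92%), and 8 and 8 at W12 (13.4 and 20.9%). All 4 comparisons share the D0 list, so these counts are not independent of each other.

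**Figure D2:**
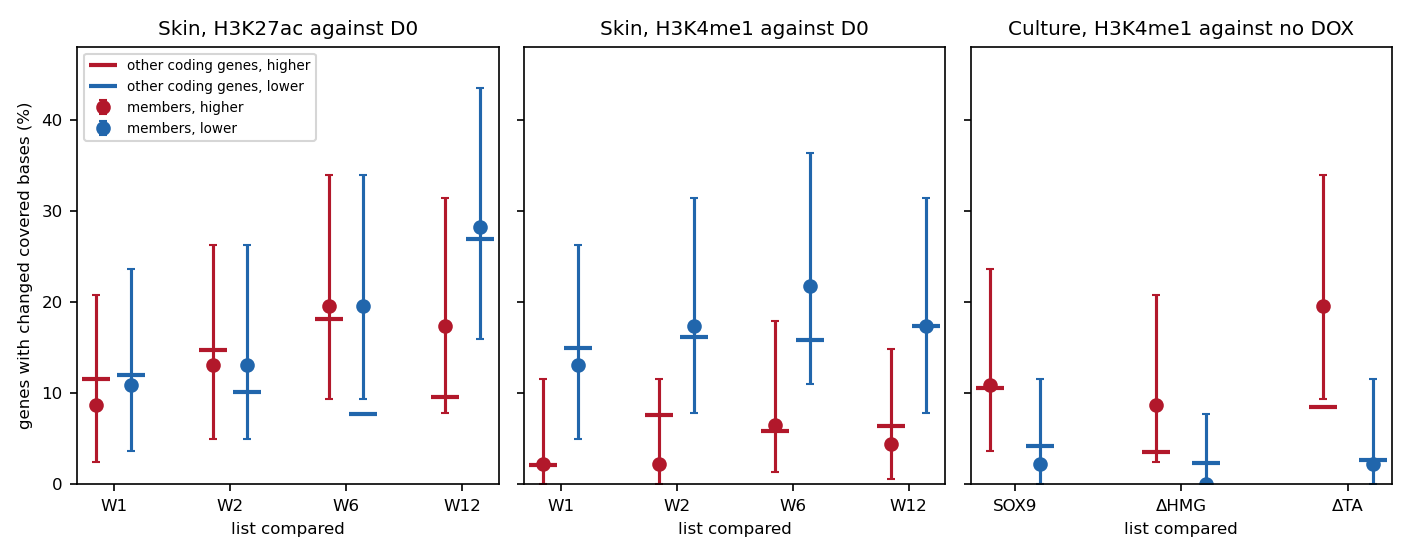
Percentage of the 46 members called higher (red) or lower (blue) than the reference list, with exact 95% intervals as bars, and of all other coding genes as short horizontal lines, for H3K27ac and H3K4me1 in skin and H3K4me1 in culture. Members lie near the lines in most comparisons, and H3K27ac lower at W6 and ΔTA-SOX9 higher are the pairs whose bars do not reach the line.

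Across the 4 later lists, 7 members were called higher in at least 2 (15.2%, 95% CI 6.34 to 28.9%, background 14.7%), namely *Rarb*, *Rarg*, *Nr1d2*, *Esrra*, *Esrrg*, *Nr2e3* and *Nr4a3*. Lower in at least 2 were 10 members (21.7%, 10.9 to 36.4%, background 14.4%), namely *Thrb*, *Rxra*, *Rxrb*, *Ppara*, *Nr1h2*, *Nr1h4*, *Rora*, *Esr1*, *Nr2c1* and *Nr4a1*. Without the W12 list of grafted skin, *Esrrg* left the first set, which then held 6 members (background 12.9%). The second then held 5, *Ppara*, *Nr1h4*, *Rora*, *Esr1* and *Nr4a1* (background 7.81%). No direction was thus shared by the family, and receptors for retinoids stood in both sets.

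The retinoic acid receptors and their partners had different patterns. *Rarg*, the main retinoic acid receptor of epidermis (chr15:102234938-102257517, minus strand), had 4716 bp under H3K27ac before induction, 8380, 8403 and 10522 bp from W1 to W6, and 2150 bp at W12. Cover was thus 1.78-fold that of D0 at W1 and W2 and 2.23-fold at W6, and 0.456-fold, called lower, in the grafted skin of W12. All 4 regions nearest to a *Rarg* start site at D0 were called again at W1, W2 and W6, and 3 further such regions were called at each of these times. *Rarb*, in a window of 428 kb, was called higher at W2, W6 and W12 and had 1251 bp at D0, then 1396, 2617 and 1980 bp through W6, and 2482 bp in the grafted skin of W12. *Rara* had 8842 bp at D0 and 5902, 6563, 7276 and 5134 bp at W1, W2, W6 and W12, and was called lower at W12 alone. Of the retinoid X receptors, the obligate partners of many members, *Rxra* was called lower at W6 and W12 and *Rxrb* at W2 and W12. The *Rxra* call was kept in 7 of 11 other settings and lost, with 0 lists lower, in equal windows of 20 kb around the start site. *Rxra*, the form that predominates in skin, had 21897 bp before induction and 24093, 17658, 14206 and 9758 bp at the later times in turn. Of its 28 own regions at D0, all counted as nearest to its start sites, 14, 14, 12 and 12 were called in the later lists in turn, not always the same ones, and 11 were never called again. *Rxrb* had 5023, 3471, 3249, 5393 and 3145 bp from D0 to W12, with W6 at 1.07-fold that of D0. It was 1 of 2 members, with *Nr1d1*, that had a peak over the most 5′ start site in all 5 lists (4.35%, 95% CI 0.531 to 14.8%, background 12.7%). The strongest *Rxrb* peak lay there, shared with the start of *Slc39a7*, with a fold of 28.7 at D0 and 12.8 to 25.0 later.

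The thyroid hormone receptors differed as well. *Thrb* had 5644, 6449, 5757, 1469 and 742 bp from D0 to W12. It held its cover through W2 and had 0.260-fold that of D0 at W6. Of its 9 own D0 regions, 7, 6, 2 and 1 were called at W1, W2, W6 and W12. *Thra* had 12773 bp at D0 and 8775 to 12982 bp later and was called neither higher nor lower in any list, and it shares most of its window with *Nr1d1*.

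*Ppara*, which encodes the fatty acid sensor PPARα (chr15:85734983-85802819, plus strand), had no called H3K27ac peak at W12 and was called lower at W2, W6 and W12. It had 4110 bp at D0, then 4048, 436 and 1327 bp through W6, and 0 bp in the grafted skin of W12. All 5 regions nearest to a *Ppara* start site at D0, among them the start-site peak printed above with its fold of 8.0, were not called from W2 on. Of the 5, 3 were still called at W1. What remained at W2 and W6 was a single downstream peak whose nearest start site is that of *Cdpf1*. All 5 lost regions lay under an H3K4me1 domain at every time, W12 included. *Ppard*, the PPAR that predominates in keratinocytes, had 6050, 4528, 6101, 9697 and 5277 bp from D0 to W12 and was called higher at W6 alone. *Pparg* had none before W12 and 920 bp there. The bile acid receptor gene *Nr1h4* had 1939, 1548, 1041, 629 and 2915 bp in the same order, lower at W2 and W6 and higher at W12. Of the liver X receptors, *Nr1h2* had 1321, 792, 922, 1864 and 758 bp and was called lower at W1 and W12. Its start-site peak was called in every list, and the 2 calls rested on a D0 peak whose nearest start site is that of *Pold1*. *Nr1h3* had 1550 to 2904 bp and was called lower at W12 alone.

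*Vdr*, which encodes the vitamin D receptor, had the most bases under H3K27ac of the family in every list. By share of the window it was highest at W1, W2 and W6, and below *Nr1d1* at D0 and W12. *Vdr* lies at chr15:97854425-97910630 on the minus strand and is described here because of its values, outside the rule for named genes. It had 25098 bp before induction and 42862, 37207, 36130 and 13854 bp at the later times in turn. That is 26.1% of the window at D0 and 44.6% at W1, or 1.71-fold that of D0, a call that was made at W1 alone, and 0.552-fold at W12, where it was called lower. The number of peaks was 18 at D0 and 17 at W1, so that peaks were wider at W1. Regions nearest to a *Vdr* start site and regions nearest to that of *Hdac7* downstream were both wider. Between 65800 and 75176 bp of the window lay under H3K4me1 in every list, and no H3K4me1 call was made. *Nr1i3* had 325 to 1343 bp under a single peak nearest to the start of *Tomm40l*.

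**Figure D3:**
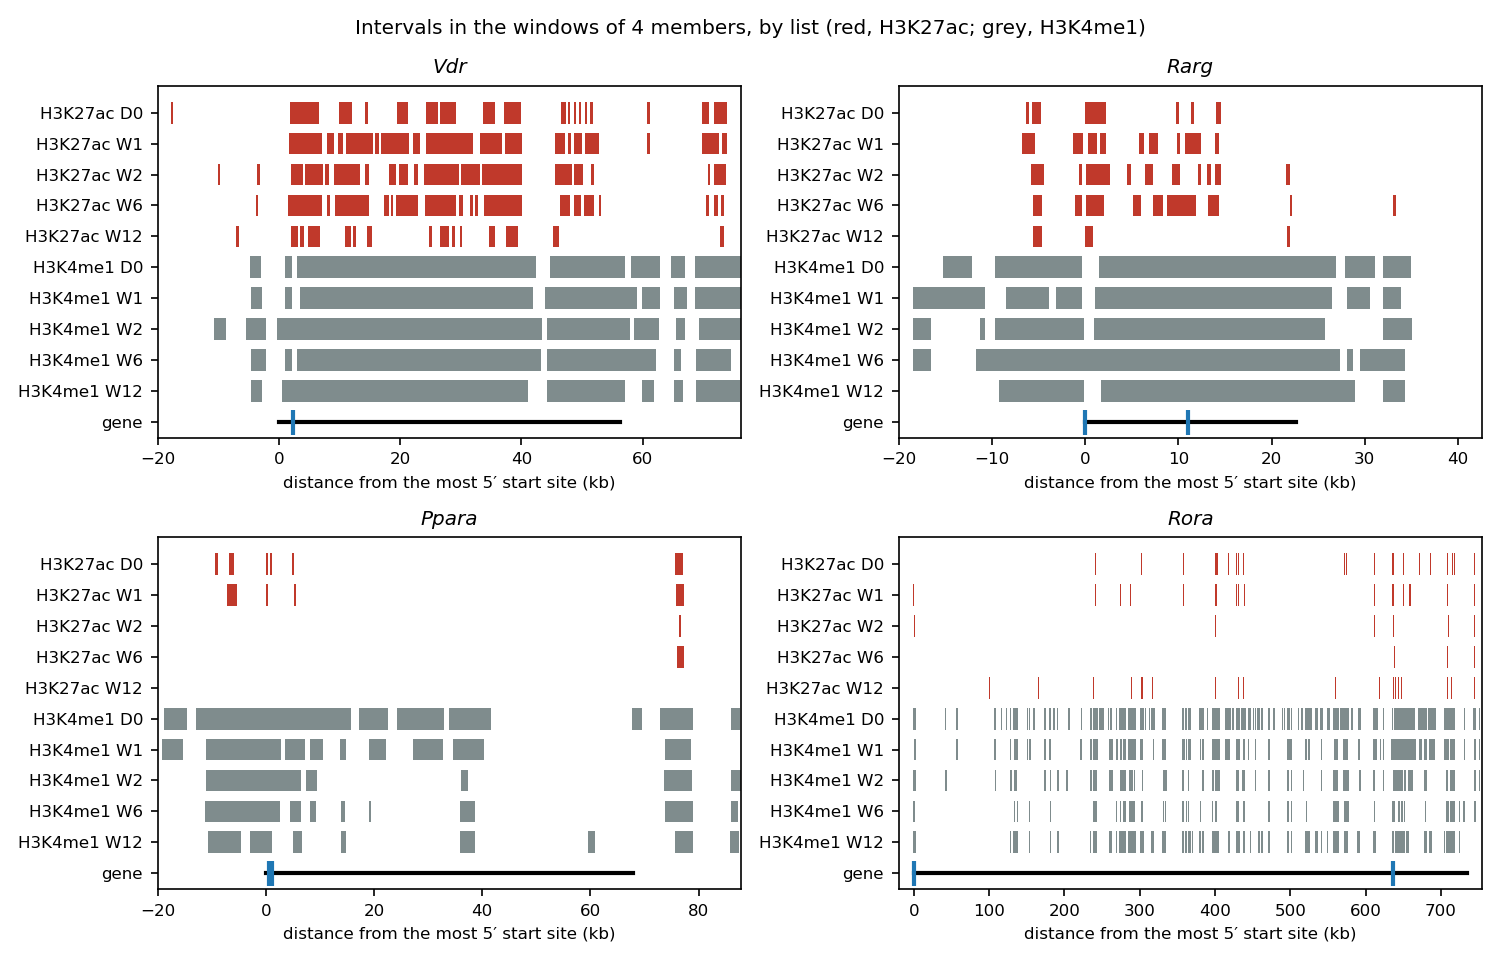
Called intervals in the windows of *Vdr*, *Rarg*, *Ppara* and *Rora*, by list, against distance from the most 5′ start site in kb along the gene's strand (red bars, H3K27ac peaks; grey bars, H3K4me1 domains; black line, gene body; blue ticks, coding start sites; the shortest bars are drawn at a minimum width). *Vdr* and *Rarg* gain red cover inside the gene at W1 to W6, *Ppara* keeps no red bar near its start sites from W2 on, and *Rora* thins to few bars at W6 while its grey domains thin as well.

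Among the clock receptors, *Rora* stood apart. It encodes RORα, an activator of clock genes that is also known from epidermal differentiation, and lies at chr9:68653786-69388246 on the plus strand in a window of 774 kb, the longest of the family. It had 16831, 11301, 4598, 1689 and 10558 bp from D0 to W12. Cover at W6 was thus 0.10-fold that of D0. Of 17 own regions at D0, 9, 4, 1 and 5 were called at the later times in turn, and 10 own regions at W12 had not been there at D0. A peak of up to 40.7-fold at the downstream end of the window lies nearest to the start site of *Ice2* and was called in every list. The repressors that oppose RORα had no such pattern. *Nr1d1* (REV-ERBα) had 12815, 8813, 12178, 11188 and 9068 bp from D0 to W12, with a start-site region of 4217 to 5446 bp in every list and a strongest fold of 33.3 at D0 and 12.3 to 17.3 later. *Nr1d2* (REV-ERBβ) had 2067, 2435, 3133, 3157 and 1497 bp, called higher at W2 and W6 by little, at 1.52-fold and 1.53-fold. *Rorb* had none.

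Steroid receptor genes carried little H3K27ac, between 0 and 3989 bp. *Esr1* (oestrogen receptor α), called lower at W1, W2 and W6 and higher at W12, had 2505 bp at D0, then 1311, 1317 and 899 bp through W6, and 3989 bp in the grafted skin of W12. Its start-site peak was called at D0 and W12 and in no list between, an intronic region 9.7 kb downstream was called in all 5 lists, and 1739 of the bases of W12 came from a single region found in no other list. *Esr2* had 527, 0, 1517, 369 and 335 bp, called lower at W1 and higher at W2. *Nr3c1*, the glucocorticoid receptor gene, had 3525, 2536, 2404, 1923 and 2880 bp from D0 to W12 and was called lower at W6 alone. The mineralocorticoid receptor gene *Nr3c2* had 0 to 893 bp.

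The oestrogen-related receptors, orphans linked to energy metabolism, gave 2 of the 7 members called higher. *Esrra* had 2618 bp before induction and 4232, 4178, 6163 and 2203 bp at the later times in turn, or 2.35-fold at W6. Its start-site region was called in every list and had 774 bp at D0 and 2146 bp at W6. A region upstream, nearest to the start of *Catsperz* and printed above, was called in every list but D0. *Esrrg* had 0, 396, 328, 1436 and 2306 bp from D0 to W12. It had 10 regions, each called in 1 list only, and no fold can be given against D0.

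Of the 9 NR2 orphans, *Nr2c1*, *Nr2e3*, *Nr2f6* and *Hnf4a* were called in at least 1 list, *Hnf4a* higher at W12 with 685 bp against 0 bp at D0. *Nr2c1* had 7227, 5661, 5151, 4177 and 3736 bp from D0 to W12 and was called lower at W6 and W12. *Nr2e3* had 292, 1294, 324, 1082 and 0 bp, called higher at W1 and W6 on weak peaks of 5.39-fold and 4.77-fold at most. *Nr2c2* had 2424 to 3275 bp and *Nr2f6* 2554 to 3944 bp, the latter called lower at W1. Of the immediate early receptors, whose genes respond to stimuli within minutes to hours, *Nr4a1* was called lower in all 4 lists, with 7738 bp at D0 and 3650, 4515, 5014 and 1316 bp at W1, W2, W6 and W12. Its strongest peak, 66.6-fold at D0, lies nearest to the start of *Atg101*. Of 6 regions nearest to *Nr4a1* at D0, 1, 2, 4 and 1 were called later. *Nr4a3* had 3496, 4944, 6512, 5686 and 2818 bp and was called higher at W2 and W6. Its start-site region was called in all lists, and the gained region printed above lies nearest to the start of *Stx17*. *Nr4a2* had 4465 bp at D0 and 1433 bp at W12, the only list in which it was called. *Nr6a1* had 3520 to 4870 bp with no call, *Nr0b2* 1055 to 2512 bp, called higher at W12, and *Nr5a1* 411 bp at W1 alone.

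The members' windows held 324 distinct H3K27ac regions once overlapping peaks of the 5 lists were merged. Of these, 60 were called in all 5 lists (18.5%, 95% CI 14.4 to 23.2%), against 17.7% of regions elsewhere. Called at D0 only were 46 (14.2%, 10.6 to 18.5%, against 9.28%) and at D0 and W1 only 13 (4.01%, 2.15 to 6.76%, against 2.1%). Gained by W2 and kept were 5 (1.54%, 0.503 to 3.56%, against 2.38%), in the windows of *Rxra*, *Ppard*, *Nr1d2*, *Esrra* and *Nr4a3*, which differs from the set of single peaks above by the merging. In member windows, regions over start sites were called in all 5 lists more often than regions in introns. The same shares were not counted for other coding genes, so this is no trait of the family. Of 23 regions over a start site of the member, 14 were called in all 5 lists, and of 184 in introns 19 were. Of 195 peaks at D0 in member windows, 72 had no counterpart at W1 (36.9%, 30.1 to 44.1%, against 35.5% elsewhere), 87 at W2 (44.6%, 37.5 to 51.9%, against 36.7%), 89 at W6 (45.6%, 38.5 to 52.9%, against 35.0%) and 117 at W12 (60%, 52.8 to 66.9%, against 52.2%). Peaks of 1 gene are not independent, and *Rora* and *Rxra* gave 17 and 28 of the 134 D0 regions that lay nearest to a member's own start site.

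H3K4me1 was lower in the family about as often as in other genes at W1, W2 and W12. At W6 the share was higher than in other genes, within counting error before scaling to list length. At least 1 domain was found in 45 of 46 members at D0 (background 82.1%), in 45 (79.5%) and 43 (80.3%) at W1 and W2, and in 45 (81.5%) and 44 (80.6%) at W6 and W12. The gene without a domain in any list was *Nr0b1*, which encodes the adrenal repressor DAX1. H3K4me1 covered a median of 25.0, 20.8, 19.0, 16.2 and 19.3% of the members' windows from D0 to W12, against 18.2, 14.7, 15.8, 15.4 and 15.4% of other genes. At W1, 6 members were called lower (background 15.0%) and 1 higher (2.07%). At W2 it was 8 lower (background 16.1%) and 1 higher (7.59%), at W6 10 lower (21.7%, 95% CI 10.9 to 36.4%, background 15.8%) and 3 higher (5.86%), and at W12 8 lower (background 17.4%) and 2 higher (6.33%). Depth is unknown for H3K4me1, so an absent domain cannot be told from one below detection. When cover was scaled to the covered length of each list, 3 members were lower and 4 higher at W1 (8.22 and 3.95% of other genes under the same scaling). It was 6 and 2 at W2 (13.8 and 8.54%), 10 and 4 at W6 (10.1 and 8.56%), and 4 and 3 at W12 (10.9 and 9.48%). The interval of the 10 lower at W6, 10.9 to 36.4%, did not reach the scaled background. Of 372 D0 domains in member windows, 123 had no counterpart at W6 (33.1%, 28.3 to 38.1%, against 24.9% elsewhere). At W1, W2 and W12 it was 28.2, 32.3 and 31.7%, against 26.1, 30.3 and 29.3%. Domains of 1 gene are not independent.

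**Figure D4:**
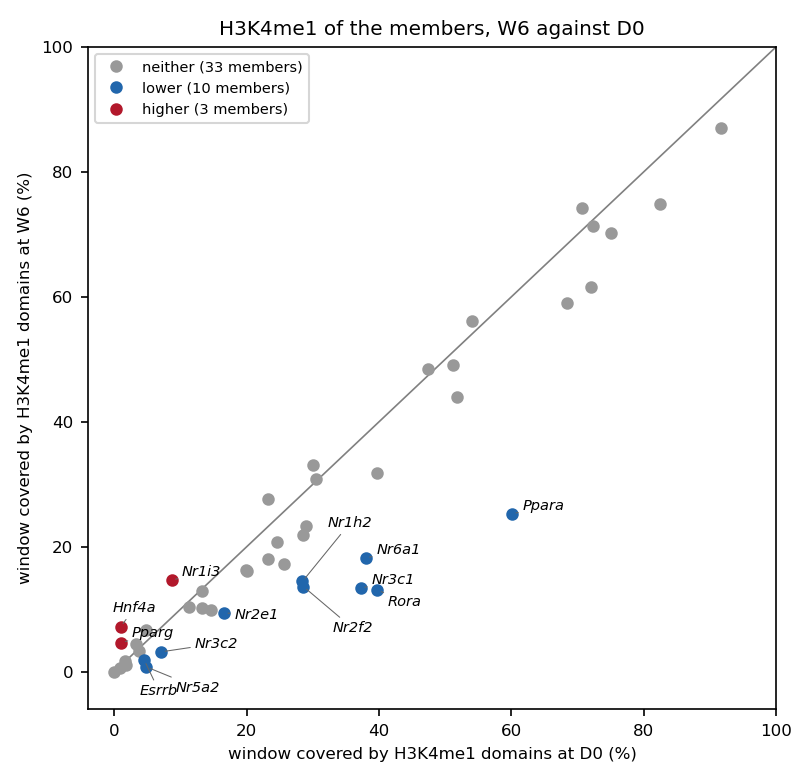
Percentage of each member's window under H3K4me1 domains at D0 (horizontal axis) and W6 (vertical axis), with the line of equal values and with members called lower in blue and higher in red. The 10 blue members include *Ppara* and *Rora* far below the line, and the 3 red members all have under 10% of the window covered at D0.

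*Rora* and *Ppara* had less of both marks at the later times. *Rora* had 307800, 216800, 151800, 101400 and 191200 bp under H3K4me1 from D0 to W12. *Ppara* had 64800, 44200, 27819, 27200 and 22000 bp, or 60.1% of the window at D0 and 20.4% at W12, in which the places of its former H3K27ac peaks were still covered. With *Nr1h2* they were the 3 members called lower in at least 2 lists of both marks (6.52%, 95% CI 1.37 to 17.9%, background 4.46%). *Nr3c1* had 55456, 42056, 52256, 19856 and 26656 bp, called lower at W6 and W12. *Nr3c2* had 27200, 9600, 20800, 12200 and 17000 bp, called lower at W1, W6 and W12. The germ cell receptor gene *Nr6a1* had 92800 bp at D0 and 44400 to 52800 bp later, lower in all 4 lists with no call of H3K27ac. In at least 2 lists, 10 members were lower (background 18.4%) and 2 higher (background 5.59%), and without W12 the numbers were 7 (background 13.6%) and 1 (background 3.47%). The 2 higher members were *Pparg*, the fat cell regulator, with 1800, 1600, 3200, 7800 and 10400 bp, and *Hnf4a*, a receptor of liver and gut, with 1000, 3910, 3600, 7600 and 2800 bp.

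Where new H3K27ac peaks arose was asked by placing them on the H3K4me1 domains of D0. In member windows, 56 of 58 peaks first called at W1 lay on a D0 domain (96.6%, 95% CI 88.1 to 99.6%, against 92.2% elsewhere). At W2 it was 24 of 30 (80.0%, 61.4 to 92.3%, against 88.2%), at W6 23 of 25 (92.0%, 74.0 to 99.0%, against 88.3%) and at W12 29 of 53 (54.7%, 40.4 to 68.4%, against 49.4%). Of the 6 peaks of W2 outside D0 domains, 3 lay in a domain of W1. The members were within counting error of the other peaks at each time.

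The cultured cells allowed the SOX9 variants to be set beside each other for H3K4me1. At least 1 interval was found in 45 members without DOX (background 84.2%), 45 with wild-type SOX9 (84.6%), and 45 (84.9%) and 44 (85.8%) with the ΔHMG and ΔTA forms. The condition of each list was read from its name. The 3 comparisons share the list without DOX, which by its name came from the cells with wild-type SOX9. No list without DOX was available for the ΔHMG or ΔTA cells. For these forms, induction and differences between separately transduced cells thus cannot be told apart. With wild-type SOX9, 5 members were higher (10.9%, 95% CI 3.62 to 23.6%, background 10.5%) and 1 lower (background 4.19%). With ΔHMG-SOX9, 4 were higher (8.70%, 2.42 to 20.8%, background 3.57%) and 0 lower (background 2.36%). With ΔTA-SOX9, 9 were higher (19.6%, 9.36 to 33.9%, background 8.52%) and 1 lower (background 2.62%). Scaled to the covered length of the lists, 3 were higher and 3 lower with wild-type SOX9 (6.75 and 6.77% of other genes under the same scaling), 4 and 0 with ΔHMG-SOX9 (3.47 and 2.43%), and 7 and 6 with ΔTA-SOX9 (5.03 and 5.24%). In equal windows of 20 kb on either side of the start site, fewer members were higher and more were lower with ΔTA-SOX9. The counts are given at the end, and the share of other genes in those windows was not counted. Differences between the variants were not tested.

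*Thrb*, *Rora* and *Rorb* were called higher with wild-type SOX9 and with ΔTA-SOX9 and not with ΔHMG-SOX9. How many other coding genes had this pattern, or the patterns below, was not counted, so none is a result about the members. *Thrb* had 9283 bp without DOX, 18600 bp when wild-type SOX9 was induced, 8118 bp under ΔHMG-SOX9 and 15209 bp under ΔTA-SOX9. *Rora* had 10314, 15775, 13316 and 21552 bp in that order, and *Rorb* 1110, 4232, 2943 and 3896 bp, so that *Rorb* with ΔHMG-SOX9 was past the fold and missed the call by its size in bases. *Nr4a3*, with 3572, 8153, 4054 and 5530 bp, and *Nr2c2*, with 9092, 13768, 9347 and 10254 bp, were called higher with wild-type SOX9 alone, and *Nr5a2*, with 5036, 2207, 5173 and 7196 bp, was lower with it alone. *Nr4a3* with ΔTA-SOX9 also was past the fold and missed the call by its size in bases. *Pparg* (3438, 5237, 5795 and 6597 bp), *Esrrb* (7935, 6402, 12251 and 16141 bp) and *Hnf4a* (5111, 4680, 11538 and 10121 bp) were called higher with ΔHMG-SOX9 and ΔTA-SOX9. For *Pparg* the value with wild-type SOX9 was 1.52-fold that without DOX and missed the call by its size in bases. *Esr2* (3808, 2878, 6171 and 5379 bp) was higher with ΔHMG-SOX9 alone. *Rxrg* (2814, 1113, 3630 and 6213 bp), *Nr1i2* (8558, 7361, 9847 and 13260 bp) and *Esr1* (7925, 8743, 10853 and 14840 bp) were higher with ΔTA-SOX9 alone, and *Nr2f6* (11367, 9706, 8937 and 7501 bp) was lower. In skin, *Rora* was called lower for H3K4me1 at W2, W6 and W12. Skin and culture lists came from different cells and callers and are not on a common scale.

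**Figure D5:**
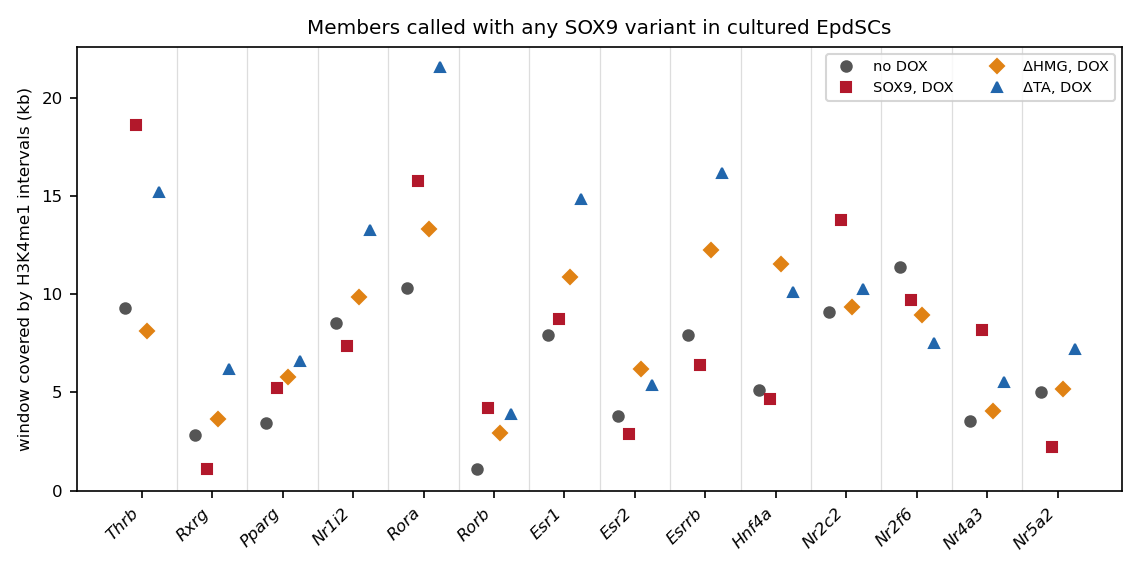
Kilobases of the window under H3K4me1 intervals in cultured EpdSCs for the 14 members called with any SOX9 variant (symbols: no DOX, SOX9, ΔHMG-SOX9 and ΔTA-SOX9 with DOX, 1 pooled list each). The list without DOX came, by its name, from the cells with wild-type SOX9. *Thrb* and *Rora* are higher with SOX9 and ΔTA-SOX9 than without DOX, and *Esrrb* and *Hnf4a* are lowest with SOX9.

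The genes that serve the receptors were described from a list of 35, all found, of coregulators, ligand-handling enzymes and binding proteins, and targets. Called higher for H3K27ac were 6, 6, 11 and 4 of the 35 from W1 to W12, and lower were 4, 4, 6 and 14 (the backgrounds given above apply). Of the 11 at W6, 7 were among the 15 ligand-handling genes (background 18.2%). Of these 15, 2, 1, 7 and 3 were called higher from W1 to W12, and 1, 2, 2 and 2 lower. *Crabp2*, which hands retinoic acid to its receptors, had 3401, 3555, 2443, 8106 and 1071 bp. *Rdh10* and *Aldh1a3*, enzymes of retinoic acid synthesis, had 3176 and 4072 bp at D0 and 5205 and 6523 bp at W6. *Aldh1a1*, another such enzyme, had 2526, 2872, 1398, 1087 and 914 bp from D0 to W12 and was called lower at W2, W6 and W12, and *Aldh1a2* had 0 bp in every list. *Cyp26b1*, which degrades retinoic acid, had 1917 bp at D0 and 4672 bp at W6. Of 9 targets, *Srebf1*, a target of the liver X receptors, had 3931, 8024, 6723, 9966 and 5585 bp. The glucocorticoid target *Fkbp5* had 1784, 3542, 6106, 5269 and 2013 bp, whereas *Tsc22d3*, another such target, had 3095, 1269, 1316, 1949 and 993 bp. Of 11 coregulators, 0 were higher and 9 lower at W12 (background 26.9%), among them *Ncoa1* with 3665, 1415, 1528, 2205 and 1566 bp. *Dio2*, which activates thyroid hormone, had 880 bp at D0, 0 bp at W1, W2 and W6 and 516 bp at W12.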

How the data were processed

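Histone marks were profiled by MINT-ChIP, a barcoded ChIP-seq, in 38 samples that form 16 groups. Groups, weeks and digests were taken from the sample labels. Per the study's methods the authors aligned reads to GRCm38/mm10, removed duplicates, merged the replicates of a group and called H3K27ac peaks with MACS2 and H3K4me1 domains with epic2. The submitters' processing notes list Bowtie2 2.2.9, SAMtools 1.9, MACS2 2.1.1 and SICER 0.0.36 without their roles. The W12 libraries also carried a replicate of W2, told apart by barcode. Culture lists have the layout of MACS2 broad peaks, and their caller is not clear from the sources used here. The deposited lists of skin H3K4me1 hold a p-value per domain. For each interval the other deposited lists give the caller's score, rounded to whole numbers, its fold over local background, and p and q as −log10 values. No counts or read totals were used, so precision rests on the number of intervals, and the depth of H3K4me1 is unknown. Total H3 and 14 barcode files were not used.

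Intervals were set against gene windows of GENCODE M21 (basic, protein-coding) with Python 3.11.15, pandas 2.3.3 and numpy 2.4.6. The members and gene lists were chosen with earlier results of these data known. All 46 members were accounted for. Values of every list were given for members called for H3K27ac in the same direction in at least 2 of the 4 later lists, with a peak over the most 5′ start site in all 5 lists, or called in culture. A region's own gene was that of the nearest coding start site. The functions were tested on simulated lists. Alternatives were no flank, a flank of 50 kb, 20 kb around the start site, intervals above the median score, lists of equal length, joining within 1000 bp, an overlap of 50%, a 2-fold limit and scaling to the covered length of each list. Own regions only, and leaving out W12, were chosen after seeing the data. Sequences came from the RefSeq GRCm38.p6 genome.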

Additional observations from a re-analysis of the deposited data

How the results depend on the processing

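Of 362 recomputed values of the comparisons, 271 stayed within their limits (within 1.5 times for a count) and 91 did not. Of 187 recomputed calls of single genes, 146 held in at least 2 lists and 40 fell below that, in part or fully. The remaining 1, with 20 kb around the start site, was reversed. *Ppara* and *Nr4a1* kept their H3K27ac calls in all 11 settings, and *Rarg*, *Rora*, *Thrb* and *Esr1* in 10. *Nr1d2* and *Nr1h2* kept theirs in 6. *Rxra* was called lower in 0 lists with 20 kb around the start site, in 1 with intervals above the median score, with a 2-fold limit and without W12, and in 2 in the other 7 settings. The causes were not tested. Counts are given in the order of time where several follow each other.

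With no flank, 58.7% of members had an H3K27ac peak at W12, H3K4me1 was higher in 2 members at W2 and 1 at W12, and 2 were higher with ΔHMG-SOX9. With a flank of 50 kb, H3K4me1 was higher in 0, 0, 1 and 1 members at W1 to W12, 1 was higher with ΔHMG-SOX9 and 0 lower with ΔTA-SOX9. With 20 kb around the start site, 58.7% had a peak at W12, H3K27ac was lower in 8 members at W1 and 5 at W6 and higher in 3 at W12, and H3K4me1 was higher in 0 at W1, W2 and W12. In culture 1, 2 and 3 members were then higher with SOX9, ΔHMG-SOX9 and ΔTA-SOX9 and 3 lower with ΔTA-SOX9. Peaks gained were then 25, 27, 25 and 26 and peaks lost 31, 39, 36 and 53, and 100% of peaks first called at W1 lay on D0 domains.

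With intervals above the median score, H3K27ac was higher in 8 and lower in 8 members at W1 and higher in 4 at W12. H3K4me1 was lower in 14 at W1, 14 at W2 and 13 at W12 and higher in 0 at W1 and 1 at W6. In culture, 8 were higher and 4 lower with SOX9, 7 lower with ΔHMG-SOX9 and 3 lower with ΔTA-SOX9. Peaks gained were 33, 18, 17 and 41 and peaks lost 31, 30, 30 and 38. With lists of equal length, 2 members were higher for H3K4me1 at W2, 3 with SOX9 in culture, 1 was lower with ΔHMG-SOX9 and 2 with ΔTA-SOX9. Joining intervals under 1000 bp apart gave 8 members lower at W1, 38 and 32 peaks gained at W1 and W6, and 46, 55 and 75 lost at W1, W2 and W12. An overlap of 50% gave 1 member lower with ΔHMG-SOX9 and 2 with ΔTA-SOX9.

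With a 2-fold limit, H3K27ac was higher in 1, 2, 5 and 4 and lower in 2, 2, 5 and 6 members at W1 to W12, with 2 higher and 4 lower in at least 2 lists. H3K4me1 was lower in 3 at W2 and 2 at W12 and higher in 1 at W12. In culture 3, 1 and 4 were higher and 0 lower with ΔTA-SOX9. Scaling to the covered length of each list gave the counts printed with the comparisons, of which 9, 10 and 8 lower at W1, W2 and W12 and 5 higher at W6 for H3K27ac were outside 1.5 times, with 4 higher and 3 lower at W1, 2 higher at W2 and 4 lower at W12 for H3K4me1, and 3 higher and 3 lower with SOX9 and 6 lower with ΔTA-SOX9. Leaving out the W12 list gave 5 members lower in at least 2 lists.

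No paired analysis was possible because the authors called each list on pooled replicates. Depth differed between H3K27ac lists and is unknown for H3K4me1.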
